A study of Mus musculus with 5 samples.

Results

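The comparison described here is of mouse embryonic stem cells given an siRNA against Dhx30 with cells of the same line given a negative control. Its members were the genes with a log2 ratio in both siDhx30 libraries, 12248 of the 12930 genes measured (94.7%). Of the others, 459 genes had a ratio in 1 siDhx30 library and 223 in neither, and 160 members lacked a ratio in at least 1 library of the other siRNA group. The cells were of the OG2 line, whose strain label names CBA/CaJxC57BL/6J and, as the other parent, female 129Sv/Jae mice. All groups spent 24 h in N2B27 medium with LIF, PD0325901 and CHIR99021, which holds the naive state, and received 50 nM siRNA with DharmaFECT 1 as the medium was changed, for 36 h, to one that contained Activin A and bFGF. There were 2 siDhx30 libraries, 2 siTfam libraries (an siRNA against Tfam) and 1 library labelled NC, the negative control. The labels do not say that replicates were separate cultures, so the spread behind each p-value is that between libraries and may be technical alone. All cells were of 1 line and the NC group is 1 library, so a value particular to that library enters every ratio and cannot be told apart from a response to siRNA.

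Dhx30 encodes a DExH-box RNA helicase found at mitochondrial RNA granules, the sites beside mitochondrial nucleoids where polycistronic transcripts of mitochondrial DNA are cut, modified and handed to ribosome assembly. Loss of the protein is known to impair assembly of the mitochondrial ribosome and, with it, synthesis of the respiratory chain subunits that mitochondrial DNA encodes. A cytoplasmic form binds messenger RNAs outside mitochondria. Cells leaving the naive state for the formative or primed state are known to shift from mixed respiration towards glycolysis.

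The deposited ratios hold the reads behind them. With the sign turned so that a ratio is siRNA over NC, the 4 ratios of each of the 12088 complete genes gave 1 and the same whole number of NC reads. With the sign as deposited, 0 of the 12088 genes did. Reads were recovered for 12680 genes with exactly 1 solution, whole within 1e-06, and these hold 99.5% of the values. The other 250 genes had more than 1 solution and have no reads below, and 0 genes had no solution. Over the complete genes the NC library held 16950475 reads, siDhx30 replicate 1 held 21947848 and siDhx30 replicate 2 held 20543345. The ratios scale these 2 libraries to NC by 1.34 and 1.20, so equal expression gives more reads in the siDhx30 libraries. The 842 genes with a missing ratio had 1574 values, and all lay above NC. Those of the 842 whose reads were recovered had 16 or fewer NC reads. The NC reads of the 250 genes with more than 1 solution, which are among the 842, are not known. The siDhx30 libraries were not the closest pair. The median absolute log2 difference over the complete genes was 0.23 between them, 0.25 and 0.20 from NC to replicates 1 and 2, and 0.14 from replicate 1 to siTfam replicate 1.

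Dhx30 itself (ENSMUSG00000032480.17, GRCm38 chr9:110084320-110117830, minus strand, protein-coding) had 5199 reads in NC, 5271 in siDhx30 replicate 1 and 5445 in replicate 2. After scaling, these are 75.6% and 87.2% of the NC level, or log2 ratios of -0.40 and -0.20 with counting errors of 0.0282 and 0.0280 (SE). Both siDhx30 libraries lay below NC and below both siTfam libraries, which stood at 0.01 and 0.04 (7412 and 6511 reads). Both siDhx30 libraries were below both siTfam libraries for 1734 of 12088 genes (14.3%). The limma mean was -0.30 (SE 0.20, n = 2), that is 81.2% of NC with a 95% interval of 55.5% to 118.9%, and did not pass (adjusted p = 0.998). Against the siTfam libraries the difference was -0.33 (SE 0.16, 95% interval -0.77 to 0.12, adjusted p = 0.999 by limma on the ratios). The same difference by limma voom on the reads was -0.33, with an interval of -0.60 to -0.056, an unadjusted p of 0.0227 and an adjusted p of 1.00. The mean ratio of 18.4% of all members was lower than that of Dhx30, and 10.3% of complete genes had a lower siDhx30 minus siTfam difference. Which part of the transcript the siRNA targets is not given in the sources used here. Tfam, which encodes the packaging and transcription factor of mitochondrial DNA, had ratios of 0.12 and -0.01 in the siDhx30 libraries (1403 reads in NC, 2039 and 1669). In the libraries labelled siTfam, where it is the target, it had -0.28 and -0.02 (1629 and 1694 reads), so replicate 2 lay at the NC level, and the siDhx30 minus siTfam difference was 0.20 (adjusted p = 0.999 by limma).

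**Figure D1:**
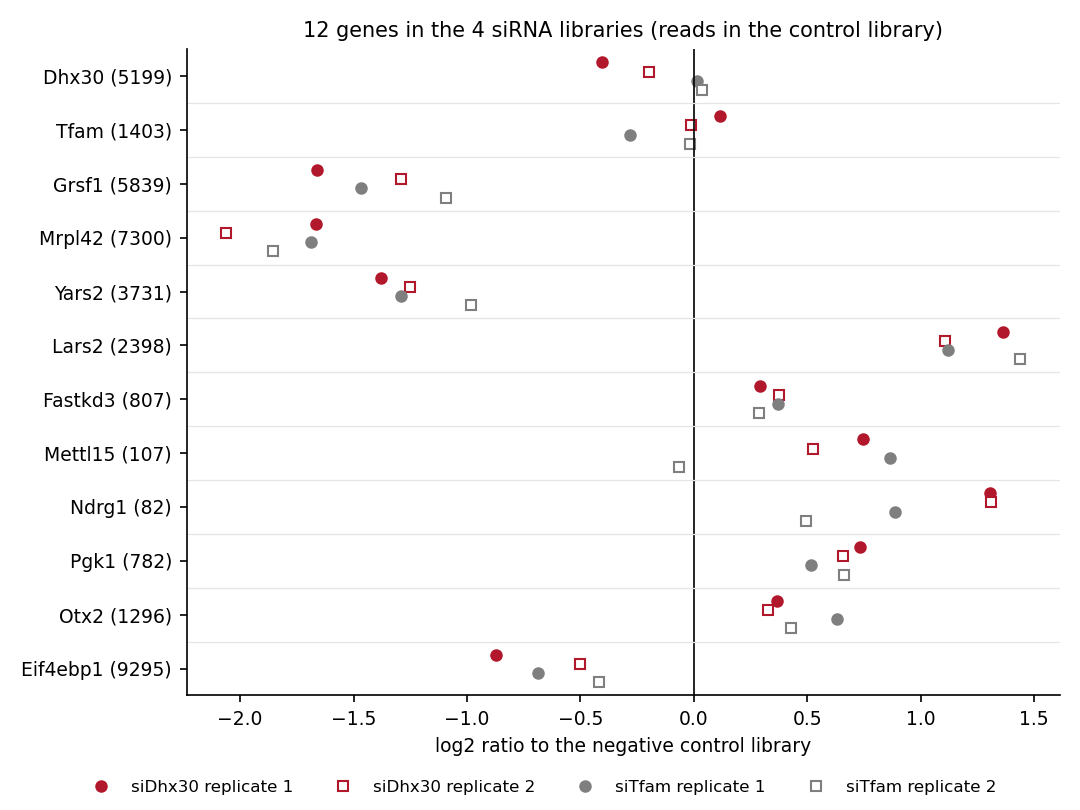
Log2 ratio to the negative control library (x axis) for 12 genes in the siDhx30 (red) and siTfam (grey) libraries, circles for replicate 1 and open squares for replicate 2, with the reads of the gene in the control library in brackets. Dhx30 lies at -0.40 and -0.20 in the siDhx30 libraries and at 0.01 and 0.04 in the siTfam libraries, while Grsf1, Mrpl42, Yars2 and Lars2 lie on one side of the control in all 4.

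Across all members, no gene passed the test on the ratios at an adjusted p of 0.05 (limma, 0 of 12248, background 0%). The smallest adjusted p was 0.297, and the unadjusted p was under 0.05 for 724 genes (5.91%), 423 of them above NC and 301 below. Both siDhx30 ratios lay on one side of NC for 8256 genes (67.4%): 4043 were above (33%) and 4213 below (34.4%). Both ratios were past 0.5 on the log2 scale for 717 genes above NC (5.85%) and 636 below (5.19%), and past 1 for 250 above (2.04%) and 203 below (1.66%). Of the genes past 0.5 above NC, 141 lacked a siTfam ratio and 576 were complete, while all 636 below NC were complete. All 160 members without a siTfam ratio lay above NC in both siDhx30 libraries. The larger count of a recovered pair was never under 17, so a gene with few reads is listed only where 1 side reached that filter. By reads, the complete genes past 0.5 sat mostly in the low classes. Of 667 complete genes with under 30 mean reads, 37 were past 0.5 above and 240 below. Of 2228 with 30 to 100 reads, 344 were above and 204 below. Of 1573 with 3000 reads or more, 6 were above and 21 below. Under 100 mean reads the filter can fix the direction of a gene, so those splits are given as counts only. The median distance between the siDhx30 ratios of a gene fell from 0.67 to 0.13 over the same classes.

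**Figure D2:**
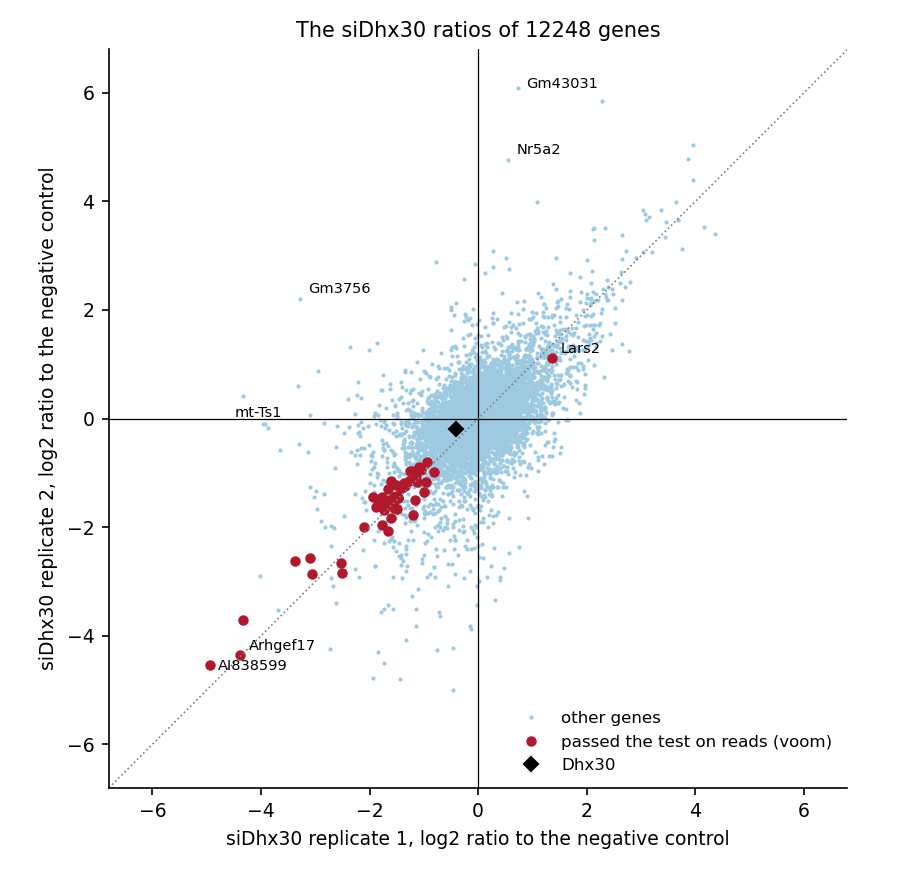
Log2 ratio to the negative control in siDhx30 replicate 1 (x axis) and replicate 2 (y axis) for 12248 genes, with the 50 genes that passed the test on reads in red, Dhx30 as a black diamond and the dotted line marking equal ratios. The genes that passed lie along the line, with 49 below NC and Lars2 above it, and Gm43031, Nr5a2 and Gm3756 lie far from the line.

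A test that weighs each gene by its reads, limma voom on the recovered reads, was added after the data were seen. It called 50 of 12088 genes: 49 were lower in siDhx30 than in NC (0.405%) and 1 was higher (0.00827%). The 49 lower genes had 537 to 15003 reads in NC (median 2127), a median log2 difference of -1.49 (range -4.73 to -0.87), and a median level of 35.5% of NC. They lay on 19 chromosomes, 42 were protein-coding, and their siDhx30 ratios differed by at most 0.76 between replicates. In all 49 both siTfam ratios were below NC as well, and the siDhx30 minus siTfam difference ran from -0.43 to 0.46 (median -0.02). None of the 50 genes passed between siDhx30 and siTfam. Without siDhx30 replicate 1 the test called 142 genes (86 higher, 56 lower), and without siDhx30 replicate 2, siTfam replicate 1 or siTfam replicate 2 it called 64, 31 and 31. Genes named from this test were chosen after their values were seen.

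**Figure D3:**
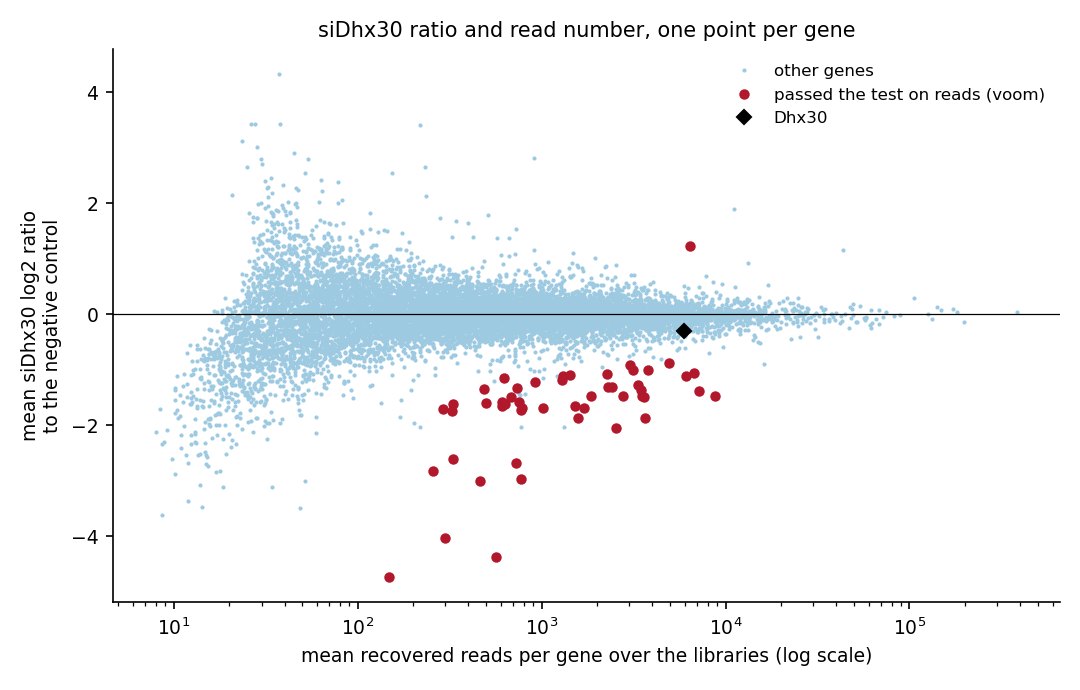
Mean siDhx30 log2 ratio to the negative control (y axis) against the mean recovered reads over the libraries (x axis, log scale) for the 12088 complete genes, with the 50 genes that passed the test on reads in red and Dhx30 as a black diamond. Ratios spread widely under 100 mean reads, and all genes that passed have more reads than that.

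Of the genes that passed as lower, those with the widest differences included the following. AI838599, a long noncoding RNA gene at chr4:3242055-3258092, had 620 reads in NC and 27 and 32 in the siDhx30 libraries (siTfam 33 and 26), with ratios of -4.94 and -4.53 and a voom adjusted p of 0.0011. Arhgef17, a guanine nucleotide exchange factor gene at chr7:100869752-100932107, had 2268 reads in NC and 146 and 133 in siDhx30 (siTfam 134 and 147). NC stood alone in both genes, and the siRNA libraries did not separate by target. Acsf2, a mitochondrial acyl-CoA synthetase gene, had 2297 reads in NC and 371 and 377 in siDhx30, ratios of -3.05 and -2.87. Rdh13, a retinol dehydrogenase gene whose product lies in mitochondria, had 908 reads in NC and 210 and 172 in siDhx30. Daam1, a formin family gene of the actin cytoskeleton, had 2009 reads in NC and 472 and 337 in siDhx30. Itm2b, an integral membrane protein gene, had 5537 reads in NC and 1733 and 1676 in siDhx30, ratios of -2.10 and -1.99. Mrc1, the macrophage mannose receptor gene, had 1084 reads in NC and 72 and 99 in siDhx30. Gm28863 is an antisense gene (1482 reads in NC, 191 and 289 in siDhx30), and whether the counting used strand is not stated, so reads of any gene on the other strand could be among them.

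Further genes that passed as lower are given as examples. Nelfa, a subunit of the negative elongation factor that holds RNA polymerase II near promoters, had ratios of -1.84 and -1.53. Kat5, an acetyltransferase gene of the NuA4 complex, had -1.35 and -1.24, and Mta2, of the NuRD deacetylase complex, had -1.37 and -1.18. Melk, a kinase gene of cycling cells, had 3200 reads in NC and 1252 and 983 in siDhx30. Ahctf1, a nuclear pore gene, had 12578 reads in NC and 5560 and 6800 in siDhx30. Pgd, which encodes an enzyme of the pentose phosphate pathway, had the most NC reads of those that fell: 15003 in NC, 7247 and 6529 in siDhx30, ratios of -1.47 and -1.46. Its siTfam ratios were -1.45 and -1.37.

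Genes for mitochondrial RNA granule and RNA processing proteins, the compartment where DHX30 works, were spread to both sides of NC. Of 25 members with both ratios, 8 were above NC in both siDhx30 libraries and 8 below, with medians of 0.01 and -0.04, beside -0.01 and 0.00 over all genes. None of them passed on the ratios, and 1 passed as lower on the reads. That gene was Grsf1 (chr5:88659448-88676171), which encodes an RNA-binding protein of the granules. It had 5839 reads in NC, 2474 and 2863 in siDhx30, and 2979 and 3342 in siTfam. Its ratios were -1.66 and -1.29 in siDhx30 and -1.47 and -1.09 in siTfam, so all siRNA libraries lay below NC and the groups overlapped (voom -1.48, SE 0.20, adjusted p = 0.0076, and 0.515 by limma on the ratios). Rexo2, which encodes an exonuclease for short RNAs, had ratios of -0.40 and -0.48. Fastkd3, of the FASTK family of mitochondrial RNA regulators, had 0.29 and 0.38. Lrpprc, which stabilises mitochondrial mRNAs, had 0.07 and -0.06, and the degradosome genes Supv3l1 and Pnpt1 had 0.01 and 0.01, and 0.02 and 0.02.

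Genes for proteins of the mitochondrial ribosome lay below NC more often than above it. In the large subunit 19 of 41 members were below NC in both siDhx30 libraries (46.3%) and 12 above (29.3%), and in the small subunit 14 of 27 were below (51.9%) and 6 above (22.2%), beside 34.4% and 33% of all genes. The medians were -0.12 and -0.06 for the large subunit and -0.08 and -0.09 for the small one. In siTfam replicates 1 and 2 the medians were -0.06 and 0.14 for the large subunit, and -0.08 and 0.09 for the small one. Mrpl42 (chr10:95480805-95501940), of the large subunit, was the 1 member that passed on the reads. It had 7300 reads in NC, 3086 and 2100 in siDhx30, and 3198 and 2464 in siTfam, with ratios of -1.67 and -2.06 in siDhx30 and -1.69 and -1.86 in siTfam. All siRNA libraries lay below NC and the siRNA groups overlapped (voom -1.86, SE 0.18, adjusted p = 0.0011, and 0.381 by limma on the ratios). Mrpl54 had ratios of -0.74 and -0.53, and in the small subunit Mrps22 had -0.61 and -0.44 and Mrps15 had -0.42 and -0.53. Dap3, which encodes a GTP-binding protein of the small subunit, had -0.29 and -0.30. Of 26 genes for ribosome assembly and rRNA modification, 6 were above NC and 9 below. The rRNA methyltransferase genes Mettl15 (0.75 and 0.53, from 107 NC reads) and Nsun4 (0.70 and 0.43, from 168) were above NC, while Ngrn and Gtpbp6, both of mitoribosome assembly, were below it at -0.31 and -0.45, and at -0.35 and -0.46. None of these 26 genes passed either test.

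Of the 50 genes that passed on the reads (0.414% of 12088), 2 encode mitochondrial tRNA synthetases, those of leucine and tyrosine. These 2 passed in opposite directions and were picked after their values were seen. The other mitochondrial synthetase genes were not counted as a list. Lars2 (chr9:123366927-123462666) was the 1 gene that passed as higher on the reads: it had 2398 reads in NC, 8262 and 6212 in siDhx30, and 7351 and 7935 in siTfam. Its ratios were 1.36 and 1.11 in siDhx30 and 1.12 and 1.44 in siTfam (voom 1.24, SE 0.19, adjusted p = 0.0214). No gene passed as higher without siTfam replicate 1 or without siTfam replicate 2, where the test called 31 genes, all lower. Yars2 (chr16:16302965-16309640) passed as lower, with 3731 reads in NC, 1926 and 1882 in siDhx30, and ratios of -1.38 and -1.25 (siTfam -1.29 and -0.98). Nadk2, the mitochondrial NAD kinase gene, had -1.25 and -0.97, and Metap1d, which encodes a mitochondrial methionine aminopeptidase, had -1.16 and -1.49.

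Of the RNAs that mitochondrial DNA encodes, both rRNAs and 12 tRNAs were among the members, and 6 of these 14 lay above NC in both siDhx30 libraries and 6 below. The large rRNA mt-Rnr2 had 14576 reads in NC, 13127 and 13819 in siDhx30, and ratios of -0.57 and -0.34, and the siTfam ratios were -0.53 and -0.28. The small rRNA mt-Rnr1 had 6501 reads in NC, 7224 and 7067 in siDhx30, and ratios of -0.27 and -0.14, with -0.09 and -0.04 in siTfam. All siRNA libraries lay below NC for both rRNAs. Of the 2 rRNAs, mt-Rnr1 alone had both siDhx30 libraries below both siTfam libraries, as did 14.3% of all complete genes. Neither passed (adjusted p = 0.973 by limma and 0.999 by voom for mt-Rnr2). The siDhx30 replicates differed widely for some tRNAs and little for others. The serine tRNA mt-Ts1 had 2149 reads in NC, 196 in siDhx30 replicate 1 and 2283 in replicate 2, ratios of -3.88 and -0.18, and siTfam replicates 1 and 2 stood at -3.19 and -0.63. The leucine tRNA mt-Tl1 had 1014 reads in NC and ratios of 0.08 and 0.04. The glutamate tRNA mt-Te had ratios of -1.0 and -0.34 in siDhx30 and -1.13 and -0.19 in siTfam. The tyrosine tRNA mt-Ty had 95 reads in NC, 181 in replicate 1 and 892 in replicate 2, ratios of 0.51 and 2.97. For mt-Ts1 and mt-Te the replicate 1 libraries of both siRNAs were the low ones, and for mt-Ty siDhx30 replicate 2 alone was high. The genes mt-Ts1, mt-Te and mt-Ty lie on the minus strand of mitochondrial DNA. Whether the counting used strand is not stated, so reads of RNA from the other strand could be among theirs. Total RNA was fragmented before cDNA was made, and how well tRNAs were captured was not tested. The tryptophan and threonine tRNAs mt-Tw and mt-Tt were above NC in both siDhx30 libraries, at 0.66 and 0.87 and at 0.78 and 0.88, from 95 and 19 NC reads.

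None of the 13 mitochondrial mRNAs was among the names, so they are not analysed here. Copies of 7 of them in the nuclear genome were, all unprocessed pseudogenes on the minus strand of GRCm38 chr1 between 24611535 and 24616197. They held 3.23% of the reads of the complete genes in NC and 3.48% and 3.19% in siDhx30. Their annotated transcripts match the mitochondrial ones almost base for base, which is shown for the 2 copies with a mismatch, with that base in capitals (GENCODE M21 transcripts, read along the minus strand of chr1:24612775-24613119 for Gm28438 and of chr1:24615706-24616197 for Gm29216):
Gm28438: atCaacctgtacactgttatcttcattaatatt
mt-Nd3: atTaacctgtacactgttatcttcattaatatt
Gm29216: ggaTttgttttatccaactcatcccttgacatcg
mt-Co1: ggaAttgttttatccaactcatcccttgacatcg
The mismatch lies at base 3 of Gm28438 and base 13 of Gm29216, counted from the start of each transcript. The other 5 copies were identical to their mitochondrial gene over the aligned bases, for example over 876 bases for Gm28439 and mt-Nd4. Not every copy spans its gene. Gm29216 aligned over 483 of the 1545 bases of mt-Co1, and Gm28439 over 876 of the 1378 bases of mt-Nd4. The rest aligned over nearly the whole mitochondrial gene. A read within these stretches cannot be assigned to the copy or to the mitochondrial gene from its sequence, so each value below is of the pair and is uncertain for either gene.

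The pairs lay on both sides of NC. Gm29216, paired with mt-Co1 of complex IV, had 70533 reads in NC, 136024 in siDhx30 replicate 1 and 88055 in replicate 2, ratios of 0.52 and 0.06 (siTfam 0.42 and 0.25). Gm28438, paired with mt-Nd3 of complex I, had ratios of 0.60 and 0.09. In both, replicate 1 was high and replicate 2 lay near NC. Gm28661, paired with mt-Co2, had 0.24 and 0.04, and Gm28437, paired with mt-Co3, had 0.08 and 0.07. Gm28439, paired with mt-Nd4, had 59804 reads in NC, 66316 and 62634 in siDhx30, ratios of -0.27 and -0.20 (siTfam -0.53 and -0.23). Gm10925, paired with the ATP synthase gene mt-Atp6, had -0.23 and -0.05, and Gm10222, paired with mt-Nd4l, had -0.18 and 0.02. Both siDhx30 ratios were above NC in 4 pairs and below it in 2, and none passed either test (adjusted p = 0.998 by limma and 0.999 by voom).

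**Figure D4:**
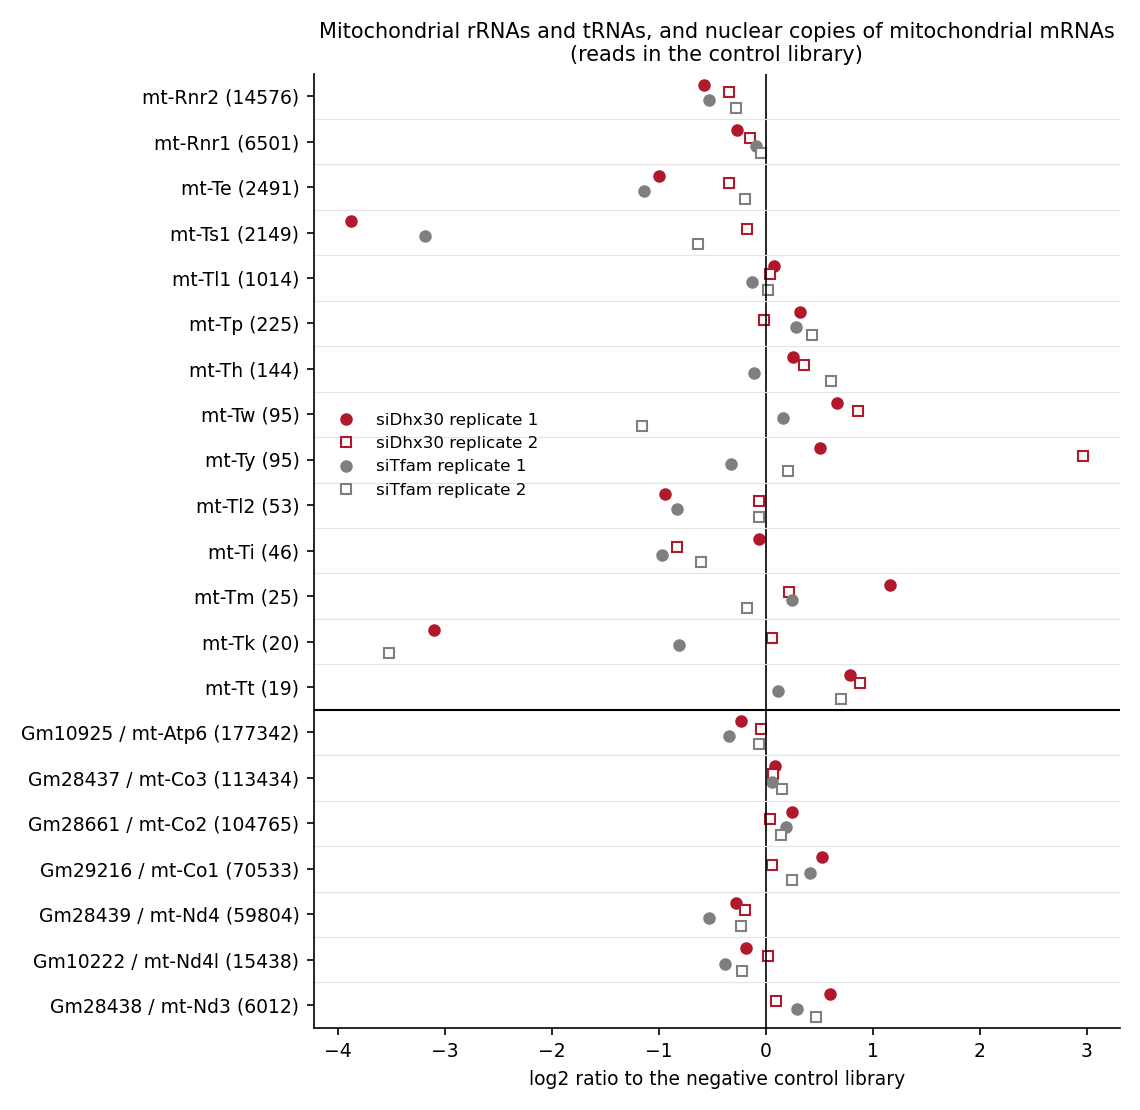
Log2 ratio to the negative control library (x axis) for 14 mitochondrial rRNAs and tRNAs (above the line) and 7 nuclear copies of mitochondrial mRNAs (below it) in the siDhx30 (red) and siTfam (grey) libraries, circles for replicate 1 and open squares for replicate 2, with reads in the control library in brackets. The rRNAs lie below the control in all 4 libraries, and mt-Ts1 and mt-Te are low in the replicate 1 library of both siRNAs.

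Nuclear genes of the respiratory chain showed no common direction. For complex I, 14 of 35 members were above NC in both siDhx30 libraries and 10 below, and for complexes II to V 12 of 33 were above and 10 below, with 0 calls in either test. Among complex I subunits, Ndufa11 had 0.56 and 0.29 and Ndufab1, the acyl carrier protein, had -0.65 and -0.37. Cox4i1, of complex IV, had 6200 reads in NC and ratios of 0.34 and 0.25, and Cox7a2 had 0.42 and 1.35. Of 20 genes for mitochondrial DNA maintenance and transcription, 8 were above NC and 5 below. Primpol, the primase-polymerase gene, had 32 reads in NC, 109 and 72 in siDhx30, and ratios of 1.34 and 0.90. Exog, a mitochondrial nuclease gene, had 0.35 and 0.34, and Polrmt, the mitochondrial RNA polymerase gene, had -0.33 and -0.09. Of 28 import, chaperone and protease genes, 8 were above NC and 13 below. Clpx, a protease subunit gene, had -0.26 and -0.23, and Hspa9, the mitochondrial Hsp70 gene, had -0.01 and -0.11.

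Genes of the ATF4 programme, which responds to mitochondrial stress in many cells, were near NC: of 33 members 9 were above in both siDhx30 libraries and 11 below, with medians of -0.03 and 0.02. Atf4 itself had -0.14 and 0.08, Asns, the asparagine synthetase gene, had 0.02 and -0.04, and Trib3 had -0.04 and 0.34. The widest lower values were those of Eif4ebp1, which encodes an inhibitor of cap-dependent translation: 9295 reads in NC, 6807 and 7894 in siDhx30, ratios of -0.87 and -0.50 (voom adjusted p = 0.458). Among 23 p53 targets and apoptosis genes 10 were above NC and 8 below. Cdkn1a, the p21 gene, had -0.04 and -0.32, and Mdm2 had 0.14 and 0.28. Of 15 genes for sensing of double-stranded RNA and the interferon response, 2 were above NC and 6 below. Oasl2 had -0.55 and -0.33, and Ddx58, the RIG-I gene, had 0.07 and -0.08. None of these genes passed either test.

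Hypoxia response and glycolysis genes lay above NC more often than below, and more so in siDhx30 replicate 2. Of 15 hypoxia response genes, 9 were above NC in both siDhx30 libraries (60%) and 2 below, with medians of 0.10 in replicate 1 and 0.40 in replicate 2. Of 18 glycolysis genes, 9 were above (50%) and 2 below, with medians of -0.01 and 0.23. The siTfam medians were 0.14 and 0.20 for hypoxia and 0.00 and 0.09 for glycolysis. Ndrg1, a hypoxia-induced gene, had 82 reads in NC, 272 and 244 in siDhx30, and ratios of 1.31 and 1.31, with 0.89 and 0.49 in siTfam. Both siDhx30 libraries lay above both siTfam libraries, which lay above NC (limma adjusted p = 0.498 against NC, voom 0.999). Both siDhx30 libraries were above both siTfam libraries, on whichever side of NC these lay, for 14.7% of complete genes. Bnip3, a mitophagy receptor gene, had 0.55 and 0.87. Pgk1, the phosphoglycerate kinase gene, had 782 reads in NC, 1740 and 1481 in siDhx30, and ratios of 0.73 and 0.66 (siTfam 0.52 and 0.66), with an adjusted p of 0.659 by limma and 0.572 by voom. Pfkfb3, whose product makes the activator of phosphofructokinase, had 0.64 and 0.92, and the glucose transporter gene Slc2a3 had 0.39 and 0.79. No gene of either list passed. Of 23 TCA cycle genes 7 were above NC and 9 below, and of 19 cholesterol synthesis genes 8 were above and 4 below, again with no gene past either test.

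**Figure D5:**
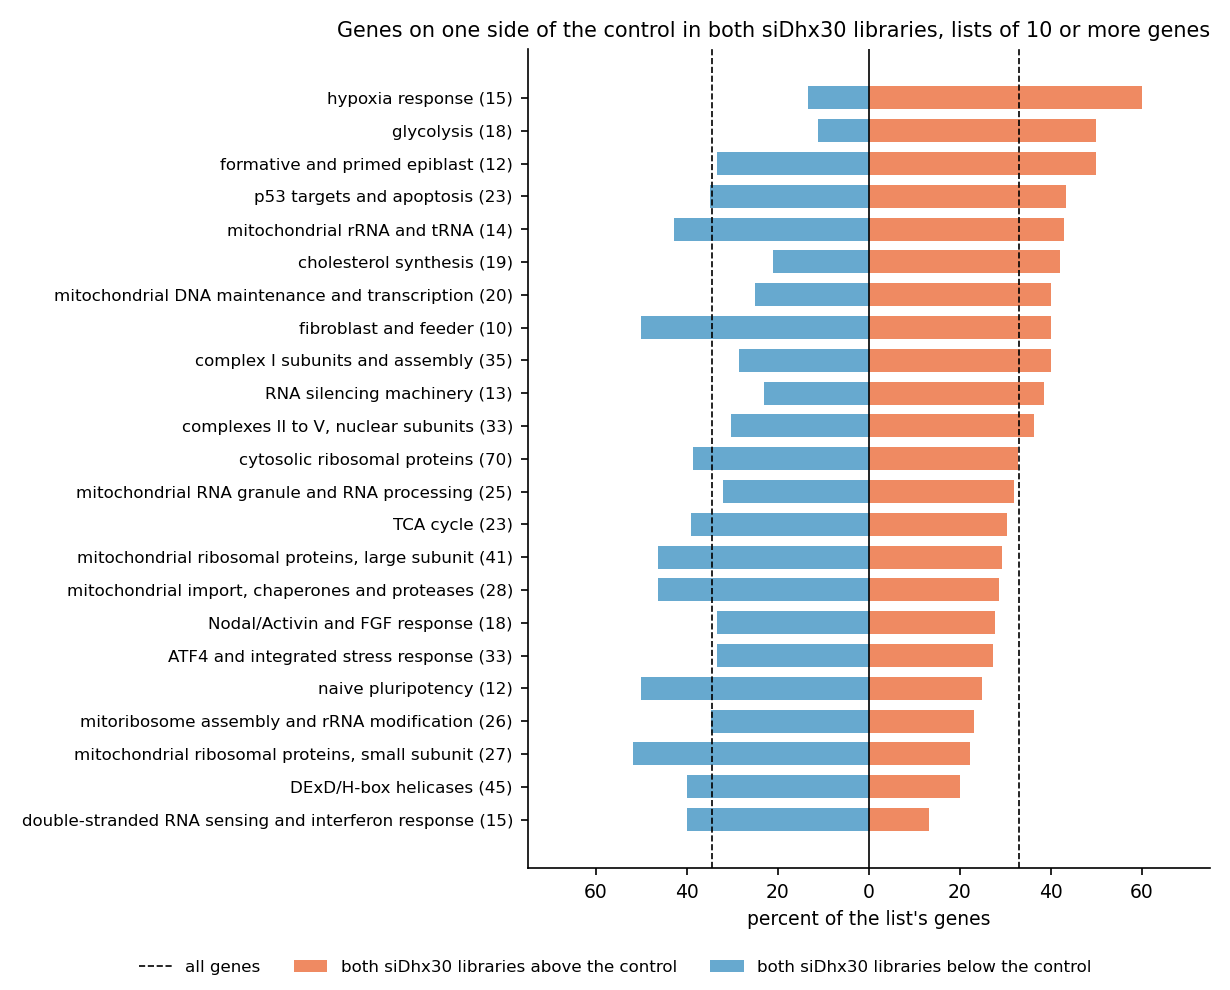
Percent of the genes of each list that lay above the negative control in both siDhx30 libraries (orange, right) or below it in both (blue, left), for lists with 10 or more genes, the number of genes in brackets. The dashed lines mark all genes, 33% above and 34.4% below, and hypoxia response stands at 60% above and 13.3% below.

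Other genes of the helicase family were spread around NC. Of 45 other DExD/H-box helicase genes, 9 were above NC in both siDhx30 libraries and 18 below (40%), with medians of -0.03 and -0.04, and none passed. Dhx40 had 1489 reads in NC, 1221 and 912 in siDhx30, and ratios of -0.71 and -0.97 (siTfam -0.73 and -0.97), lower than those of Dhx30 in both libraries. Dhx36, which unwinds G-quadruplexes, had 0.30 and 0.32. Among 13 genes of the RNA silencing machinery that siRNAs use, Ago2 had 2130 reads in NC, 2177 and 1574 in siDhx30, and ratios of -0.39 and -0.70 (siTfam -0.77 and -1.09), and Ago1 had -0.23 and -0.31. Dicer1 had 0.24 and 0.10. Cytosolic ribosomal protein genes were split, with 23 of 70 above NC and 27 below. Rps15a had 0.62 and 0.48, from 5678 NC reads, and no gene of the list passed.

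The labelled cell type could be checked with part of its markers. Pou5f1, Sox2, Nanog, Klf2, Klf4 and Zfp42 were not among the names and are not analysed here, and 12 of 26 naive pluripotency genes were members. Of these 3 were above NC in both siDhx30 libraries and 6 below. Esrrb, a naive factor gene, had 0.06 and 0.02. Tbx3 had 24 reads in NC and 13 and 6 in siDhx30. It has ratios only because NC held at least 17 reads, so it could appear only as lower. Socs3, a target of LIF signalling, had 40 reads in NC, 26 and 22 in siDhx30, and ratios of -1.04 and -1.12. Of 12 formative and primed epiblast genes, 6 were above NC and 4 below. Otx2, a transcription factor gene that drives the exit from the naive state, had 1296 reads in NC, 2241 and 1951 in siDhx30, and ratios of 0.37 and 0.33 (siTfam 0.63 and 0.43). The de novo methyltransferase genes Dnmt3a and Dnmt3b had 0.19 and 0.18, and -0.06 and 0.16. Pim2 had -1.01 and -0.52. Among Nodal, Activin and FGF response genes, Lefty1, a target and inhibitor of Nodal, had -0.93 and -0.43, Smad7 had 0.41 and 0.41, and Smad3 had 1.34 and 0.59 from 37 NC reads. None of these genes passed either test.

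Markers of other cells were sparse. None of 20 primitive streak and mesendoderm genes was among the names, 1 of 22 genes of 2-cell-like cells was a member, and 6 of 17 neural, 8 of 20 primitive endoderm, 4 of 17 trophoblast and 10 of 28 fibroblast and feeder genes were. Of the 6 neural genes 2 were above NC in both siDhx30 libraries and 2 below. Meis1 had ratios of 0.99 and 0.52 and Map2 of 0.29 and 0.01, from 18 and 135 NC reads, and Nes had -0.50 and -0.67 and Pax6 -0.36 and -0.78, from 166 and 66. The feeder gene Col1a2 had -0.87 and -0.62 from 119 NC reads, and Thy1 had 0.63 and 0.75 from 39. Apoe had 7175 reads in NC and ratios of -0.44 and -0.32. No marker of these lists passed either test, and fewer cells of a type and less RNA per cell cannot be told apart in bulk RNA.

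The highest ratios that both siDhx30 libraries shared belonged to genes with few NC reads. The larger count of a recovered pair was never under 17. A gene with fewer NC reads than that has a ratio only where the siRNA library held at least that many. For genes with as few NC reads as Tomm20l, Tyk2 and Pip5kl1 this filter fixes the direction. Tomm20l had 2 reads in NC, 36 and 32 in siDhx30, and ratios of 3.68 and 3.66, with a 95% counting interval of 1.79 to 6.85 in replicate 1. Tyk2, a Janus kinase family gene, had 2 reads in NC and 31 in each siDhx30 library, ratios of 3.46 and 3.62 and an interval of 1.56 to 6.64. Neither gene had a siTfam ratio. Pip5kl1 had 5 reads in NC, 43 and 47 in siDhx30, and 28 and 26 in siTfam. Oxsm, which encodes a mitochondrial fatty acid synthesis enzyme, had 15 reads in NC, 113 and 89 in siDhx30, and 77 and 97 in siTfam, ratios of 2.48 and 2.30 in siDhx30 and an interval of 1.71 to 3.37 in replicate 1. Intervals cover counting error only. The smallest limma adjusted p of these genes was 0.366, and voom gave 0.999 for Pip5kl1 and Oxsm. Among the lowest shared ratios, Egf (30 reads in NC, 6 and 7 in siDhx30) and Fxyd2 (29 reads, 6 and 4) also had few reads and passed neither test. Their siDhx30 reads were under 17, so Egf and Fxyd2 have ratios only because NC held at least that many. The filter fixes their direction too.

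Some abundant noncoding RNAs lay above NC in all 4 siRNA libraries without passing, and were picked after their values were seen. Malat1, a nuclear long noncoding RNA gene, had 6370 reads in NC, 18735 and 12502 in siDhx30, and ratios of 1.13 and 0.71 (siTfam 1.07 and 0.30, voom adjusted p = 0.999). D130009I18Rik had 2747 reads in NC, 17867 and 9470 in siDhx30, and ratios of 2.28 and 1.52 (siTfam 1.36 and 2.18). Replicate 1 was the higher siDhx30 library in both. Over 470 complete lincRNA genes the medians were 0.20 in replicate 1 and -0.05 in replicate 2, beside -0.02 and 0.00 over 9256 protein-coding genes.

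The siDhx30 replicates differed most in genes led by pseudogenes and by Nr5a2. Nr5a2, a naive pluripotency and early embryo nuclear receptor gene, had 30 reads in NC, 59 in replicate 1 and 982 in replicate 2, ratios of 0.55 and 4.76, while siTfam stood at 0.55 and -0.15. Gm43031 had 12 reads in NC, 27 in replicate 1 and 983 in replicate 2. The pseudogene Gm3756 had 318 reads in NC, 44 in replicate 1 and 1765 in replicate 2, ratios of -3.27 and 2.21. In each of these replicate 2 was the high library, and none passed either test.

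The siTfam libraries share the NC library with the comparison above, and the difference between siDhx30 and siTfam is free of it. No gene passed between siDhx30 and siTfam by limma on the ratios (0 of 12088, 0%, 337 at an unadjusted p under 0.05) or by voom (0, 230 unadjusted). The groups did not overlap for 1781 genes higher in siDhx30 (14.7%) and 1734 lower (14.3%). Of genes with 100 mean reads or more, those with the widest gaps between the groups were picked after their values were seen. Rn7sk, the gene of the 7SK RNA that holds the elongation factor P-TEFb, had 110 reads in NC, 37 and 58 in siDhx30, and 329 and 135 in siTfam. Nupr1, a stress-induced chromatin regulator gene, had 0.12 and -0.09 in siDhx30 and 0.94 and 0.74 in siTfam. Axin2, a target and inhibitor of Wnt signalling, had 0.15 and 0.14 in siDhx30 and -0.50 and -0.49 in siTfam, a difference of 0.64 (SE 0.14). Flnc, the filamin C gene, had -0.83 and -0.96 in siDhx30 and -1.58 and -2.02 in siTfam. Each had an adjusted p of 0.999 by limma.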

How the data were processed

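Per the labels' protocols, total RNA of 5 libraries was DNase-treated, fragmented, made into cDNA by template switching and sequenced from both ends. Demultiplexing with bcl2fastq, HISAT2, featureCounts and DESeq2 3.14 stand in the submitters' processing notes, without settings. The authors deposited log2 ratios per gene, 1 column per siRNA library, per the file headers, and 0 value columns were left unused. The deposited log2 values were turned in sign. Whole reads were recovered by solving each gene for the NC count at which all its ratios give whole reads, with a prior count of 0.125 scaled by library size. This form was found from the values and is not stated in the sources used here. The larger count of a pair with recovered reads was never under 17.

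The main test was limma 3.58.1 (R 4.3.3) on the ratios with NC as a column of zeros, 1 coefficient per group, robust variances, Benjamini-Hochberg adjustment and a threshold of 0.05. A missing siTfam ratio was dropped, which lowers the residual degrees of freedom. The lone NC library was taken to vary as the others do. Limma voom on recovered reads (12088 genes) was added after the data were seen. The scripts were tested on simulated data. Upper-case names were matched to GENCODE M21 (12660) or RefSeq symbols (166), and 104 matched neither. Named genes were Dhx30 and Tfam, the 10 highest and 10 lowest by the smaller ratio with replicates within 0.5, the 5 smallest p, up to 4 per list and the 5 with the widest replicate difference, and others are given as list members or as picked after their values were seen. The members and lists were chosen with earlier results of these data known. Lists are described by counts and medians. Python 3.11.15, numpy 2.4.6, pandas 2.3.3, blastn 2.17.0 and matplotlib 3.10.9 were used.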

Additional observations from a re-analysis of the deposited data

How the results depend on the processing

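The count of 0 genes on the ratios held when any siRNA library was left out, when siTfam was left out, with centred columns, with protein-coding or complete genes alone and without robust variances. It was 2 among genes with 100 mean reads or more, 37 with a trend on mean reads and 50 with voom, and 36 of the 37 were among the 50. The voom count ran from 31 to 142 when 1 library was left out and was 31 with the siDhx30 libraries and NC alone, and the 31 were all among the 50. Genes at an unadjusted p under 0.05 fell from 724 to 383 with 100 mean reads or more and to 398 with voom. Genes with both ratios past 0.5 numbered 1353 in all, 764 for protein-coding genes alone, 387 with 100 mean reads or more and 453 past 1, and 2691 to 2997 when 1 siDhx30 library stood alone. Without siDhx30 replicate 1 and without replicate 2, in that order, the ratio of Tfam was -0.014 and 0.12, that of Gm3756 was 2.21 and -3.27, and that of Gm2423 was 0.41 and -4.33. The cause of these shifts was not tested. The Dhx30 ratio ran from -0.40 to -0.20 when 1 siDhx30 library was left out. Of the list medians under the alternatives, 31 moved by more than the spread between replicates and 161 did not.

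The NC library has no replicate number, so the replicate block could be fitted only for siDhx30 against siTfam, where it called 0 genes as the fit without it did. The replicate 1 minus replicate 2 differences of siDhx30 and siTfam correlated across 12088 genes (correlation 0.25). The median absolute log2 difference was 0.14 between the replicate 1 libraries and 0.23 between the replicate 2 libraries. With 2 pairs and no label that ties them, the correlation does not establish pairing. Depth limits genes with few NC reads: 1 NC read more or less moves their ratios widely, and such genes hold most of the wide ratios.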
